A study of Mus musculus with 2 samples.

Results

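In this study a double-homeodomain protein was mapped on the genome of mouse myoblasts by chromatin immunoprecipitation and sequencing (ChIP-seq), and the peaks on mouse chromosome 15 are described here. They were selected by position alone, as every row that the authors' deposited peak table places on that chromosome. This gave 2888 peaks of the 51356 in the table, or 5.62%. They were 5.89% of the autosomal peaks, on a chromosome that makes up 4.22% of the autosomal length. C2C12 is an established line of mouse myoblasts. The cells came from 1 clone carrying the codon-altered MMH transgene, which codes for the mouse Dux homeodomains fused to the C-terminal portion of DUX4 from humans, and both libraries were from cells induced with doxycycline at 2 ug/ml for 18 h. For 1 library the antisera were MO488 and MO489, raised against DUX4, and for the other a control antibody was used, labelled HA in the sample record and GFP in the design text. No RNA was measured, so the myoblast label was not checked against marker genes.

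Dux in the mouse and DUX4 in humans bind DNA through a pair of homeodomains and switch on genes of the early embryo. Both recognise AT-rich sequences built from a pair of homeobox half-sites, and many of their sites lie in repeats away from promoters. When DUX4 is expressed in muscle cells it is toxic, which is the basis of facioscapulohumeral dystrophy, so related proteins are studied in myoblasts. A peak is a stretch where fragments of the antisera library pile up above the local level of the control library. Its pileup is the number of antisera fragments over its highest point, the summit, and its fold enrichment is the pileup plus 1 divided by the local background plus 1.

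A few peaks of chromosome 15 had their summit in a promoter window, which allowed the sequence under the summit to be read. RefSeq sequences of the build GRCm38.p6 gave 936 windows for 761 genes of the chromosome, each from 250 bases before to 50 bases after a gene start. A summit lay in 11 windows of 9 genes, 4 of them protein-coding and 5 long noncoding RNA genes. The windows were searched on both strands for GATTNAATC, the core of the mouse Dux motif, and for AATCNAATC, the core of the human DUX4 motif. Some windows share a peak, so the counts are given per peak: the 11 windows held 9 peaks, and those of other chromosomes held 330. The Dux core occurred in 0.268% of all promoter windows of the genome and at 43 of the 330 peaks on other chromosomes (13.0%, exact binomial 95% interval 9.59 to 17.1%). It occurred at 0 of the 9 peaks of chromosome 15, for which the exact upper limit is 33.6%. The DUX4 core occurred in 0.487% of all windows, at 3.94% of the peaks elsewhere and likewise at 0 of the 9. With at most 1 mismatch, a setting chosen after the data were seen, the Dux core was found at 3 of the 9 peaks, against 6.10% of all windows and 51.8% of the peaks elsewhere. The DUX4 core with at most 1 mismatch was found at 2 of the 9, against 12.8% of all windows and 41.2% of the peaks elsewhere, at bases that also matched the Dux core.

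The 250 bases before the gene start are shown for the 3 genes with such a match and for the gene with the highest pileup in a window, since these are the sites where the summit can be set against the letters. In the first 3, capitals mark each match of the Dux core with at most 1 mismatch. In the last, which had no match, capitals mark the 9 bases centred on the summit.
Gm41335: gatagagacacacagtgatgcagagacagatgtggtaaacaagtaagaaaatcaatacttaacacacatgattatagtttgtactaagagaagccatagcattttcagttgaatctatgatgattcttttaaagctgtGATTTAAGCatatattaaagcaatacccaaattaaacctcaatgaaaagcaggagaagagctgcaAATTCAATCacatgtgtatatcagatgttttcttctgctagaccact
Gm32070: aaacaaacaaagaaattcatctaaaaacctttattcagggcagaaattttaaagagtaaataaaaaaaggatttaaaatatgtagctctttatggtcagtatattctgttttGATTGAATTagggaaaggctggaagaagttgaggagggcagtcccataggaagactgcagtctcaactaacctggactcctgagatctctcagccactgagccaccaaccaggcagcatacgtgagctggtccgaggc
Nol12: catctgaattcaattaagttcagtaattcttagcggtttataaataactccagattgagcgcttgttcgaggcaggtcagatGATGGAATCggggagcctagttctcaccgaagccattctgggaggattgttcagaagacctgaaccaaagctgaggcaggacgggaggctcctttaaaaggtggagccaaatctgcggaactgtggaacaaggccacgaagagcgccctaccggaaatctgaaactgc
Gm52214: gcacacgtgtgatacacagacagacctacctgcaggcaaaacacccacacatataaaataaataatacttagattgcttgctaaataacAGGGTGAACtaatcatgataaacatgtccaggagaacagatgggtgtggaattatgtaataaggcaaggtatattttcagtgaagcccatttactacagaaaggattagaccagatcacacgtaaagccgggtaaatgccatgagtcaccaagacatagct

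At *Gm41335*, a long noncoding RNA gene on the minus strand (sequence at chr15:63357027-63357276), the peak had a pileup of 113 fragments (exact Poisson 95% interval 93.1 to 136) and 17.3-fold enrichment. The second of its 2 matches was centred 0 bp from the summit, and the first 65 bp away. At *Gm32070*, another long noncoding RNA gene on the minus strand (chr15:31135850-31136099), the pileup was 74 (58.1 to 92.9) and the match was centred 7 bp from the summit. At *Nol12*, which encodes a nucleolar protein of ribosomal RNA processing, on the plus strand (chr15:78934683-78934932), the pileup was 110 (90.4 to 133) at 20.2-fold enrichment. Its match lay 77 bp from the summit. *Gm52214*, a long noncoding RNA gene on the plus strand (chr15:10708813-10709062), had a pileup of 144 (121 to 170). A match is a description of the letters, and no match says only that these letters are not in the window.

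The local background of the control library was higher at the peaks of chromosome 15 than on the other autosomes, and this bears on every pileup below. The background, in fragments, has a genome-wide floor of 4.01, below which the peak caller recorded nothing. It lay above that floor in 81.3% of the chromosome's peaks, against 14.2 to 43.1% on the other 18 autosomes, where chromosome 4 was the highest. Its median was 4.57 fragments (95% interval 4.52 to 4.62), while the median on the other autosomes was the floor itself. In the bins of 5 Mb described below the share above the floor ran from 70.4 to 93.3%. In full bins after the first on the other autosomes it ran from 5.66 to 60.5%. Median background per bin overlapped, with a lowest of 4.43 on chromosome 15 and a highest of 4.49 elsewhere. The background reached 10 fragments or more at 6 of the 2888 peaks, and at 104 of the 46146 on the other autosomes. Such high values were thus not more common on chromosome 15. The highest here was 13.0 at chr15:8802052-8802635, 91.5 kb from *Slc1a3*. Because values under the floor are not recorded, the ratio of depth between chromosome 15 and the others could not be computed. With 1 library per group there was no replicate, and everything that follows is a description of 1 peak list without a test. Intervals cover counting error only.

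Chromosome 15 had the densest peaks of the 19 autosomes, at 27.8 per Mb (counting SE 0.517), with 16.6 to 24.2 on the others. The ratio to the other autosomes pooled was 1.42 (95% interval 1.37 to 1.47). Counting only peaks of 10-fold enrichment or more, a measure relative to the local background, the ratio was 1.44. After each pileup was divided by its local background over the floor, peaks of 30 fragments or more were 1.33 times as dense as elsewhere (1.27 to 1.40). That division removes only the part of the raised depth that exceeds the floor, and the remaining part of depth in the density was not tested.

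Pileups on the chromosome ran from 14 to 1362 fragments, with quartiles of 30 and 82 and a median of 45 (95% interval 44 to 48). On the other autosomes the median was 41 and the quartiles were 28 and 70. Divided by local background over the floor, the median was 37.4 on chromosome 15 and 39.0 on the others. The interval of the former, 36.2 to 39.0, reached the latter, so a turn in direction is not resolved. That division can only lower a pileup, and it acted on a larger share of peaks here. Median fold enrichment was 7.91 (7.58 to 8.19) against 8.17, and the intervals of the 2 medians overlapped. Peaks were slightly longer, with a median of 450 bp (441 to 457) against 430 bp and a range of 287 to 1982 bp. The widest, at chr15:24302538-24304519, lay 826 kb from the nearest coding gene, *Cdh18*, with a pileup of 483.

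Counted above a fixed deposited pileup, the excess grew with the cutoff. At equal rank per Mb, given below, the ratio of pileups was not larger among the highest peaks. On chromosome 15, 556 peaks (19.3%, exact interval 17.8 to 20.7%) had 100 fragments or more, against 14.4% of peaks on the other autosomes (14.1 to 14.7%). At 300 fragments or more there were 67 peaks, or 0.645 per Mb, against 0.216 per Mb elsewhere. These 67 were 11.6% of the 577 autosomal peaks of that height. Medians are taken over a different number of called peaks per Mb on each chromosome, so peaks of the same rank per Mb were also set side by side, a comparison added after the data were seen. At 1 peak per Mb the pileup was 248 on chromosome 15 and 169 on the others, a ratio of 1.47. At 10 peaks per Mb it was 63 against 40, a ratio of 1.58, and at 15 per Mb 43 against 28. No other single autosome passed 219 at 1 per Mb or 50 at 10 per Mb, and chromosome 4 held both of those values. With the pileup divided by local background over the floor, the ratios at these 3 ranks were 1.29, 1.33 and 1.29. For chromosome 4, against the same pool, which includes it, they were 1.23, 1.18 and 1.16. At 1 per Mb the divided pileup was 211 on chromosome 15 and 200 on chromosome 4, and at 10 per Mb 52.0 and 46.0.

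**Figure D1:**
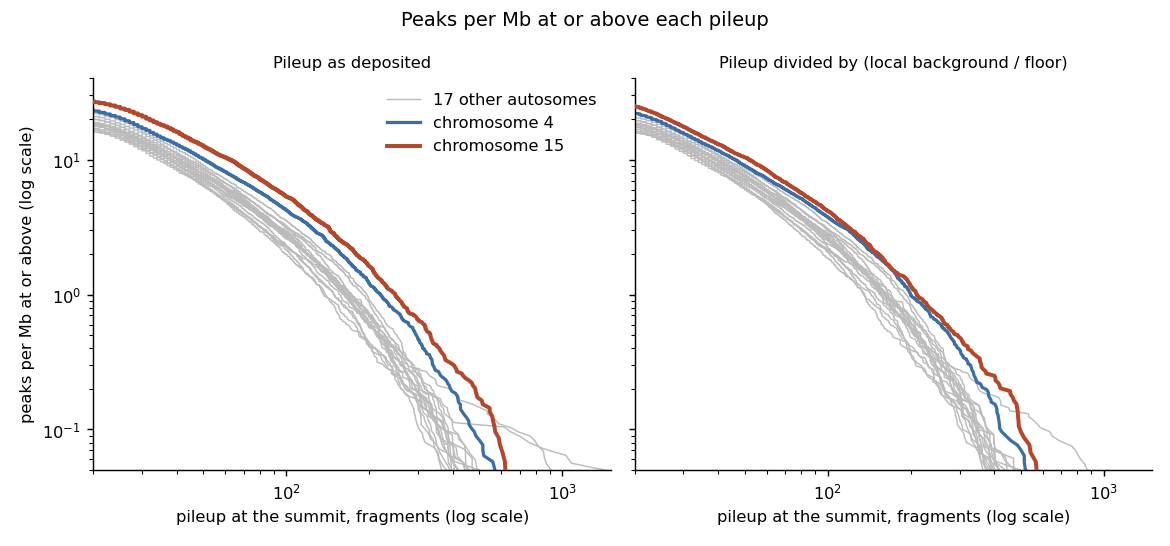
Peaks per Mb (vertical, log scale) at or above each pileup in fragments (horizontal, log scale, from 20), with the deposited pileup on the left and the pileup divided by local background over the floor on the right. Each line is 1 autosome: chromosome 15 is red, chromosome 4 blue and the 17 others grey. The red line lies above the rest on the left from 20 to 500 fragments, and moves closer to the blue line on the right.

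Along the chromosome the density changed by more than 3-fold between bins of 5 Mb. The densest bin ran from 40 to 45 Mb, with 231 peaks or 46.2 per Mb (exact Poisson 95% interval 40.4 to 52.6). The bins from 50 to 55 Mb and from 45 to 50 Mb followed, with 45.0 per Mb (39.3 to 51.3) and 38.8 per Mb (33.5 to 44.7). These 3 neighbouring bins hold 15, 15 and 2 coding genes, among them *Zfpm2*, *Oxr1* and *Angpt1* at 40 to 45 Mb and *Csmd3* at 45 to 50 Mb. The intervals of these 3 bins overlapped one another, and those of the next 3 bins also reached above 40.4, so this order is not resolved. The lowest value was that of the first bin, 12.0 per Mb (9.16 to 15.4), taken over its full 5 Mb. The first gene used there starts at 3053108 and the first peak at 3060023, so this value is not comparable with the other bins. The next lowest bins were 85 to 90 Mb with 12.8 per Mb (9.86 to 16.3) and 75 to 80 Mb with 16.2 per Mb (12.9 to 20.1). Of the 19 full bins after the first, 9 reached the 90th percentile of density over all such autosomal bins, 28.7 per Mb, against 38 of 445 on the other autosomes. No bin of another autosome passed the 46.2 per Mb of the densest one here, and the highest elsewhere was 41.6.

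Median pileup per bin lay between 41 and 53 fragments, with the highest value in the first bin, and median fold enrichment between 6.84 and 9.03. The share of a bin's peaks with 100 fragments or more ran from 12.4% at 15 to 20 Mb to 31.7% in the first bin. Over the 19 full bins after the first, density and median pileup had Pearson's r of 0.35 and Spearman's rho of 0.35. The highest single pileup of a bin ran from 243 in the last bin to 1362 at 5 to 10 Mb. Neighbouring summits lay a median of 20.8 kb apart, against 27.7 kb on the other autosomes. Summits within 1.5 kb of another made up 270 of the 2888 (9.35%, exact interval 8.31 to 10.5%), against 8.30% elsewhere (8.05 to 8.56%). The intervals overlapped, and the share was not set against the higher density of the chromosome. The most crowded 100 kb window, chr15:42500001-42600000 inside *Angpt1*, held 14 peaks with pileups from 23 to 445.

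**Figure D2:**
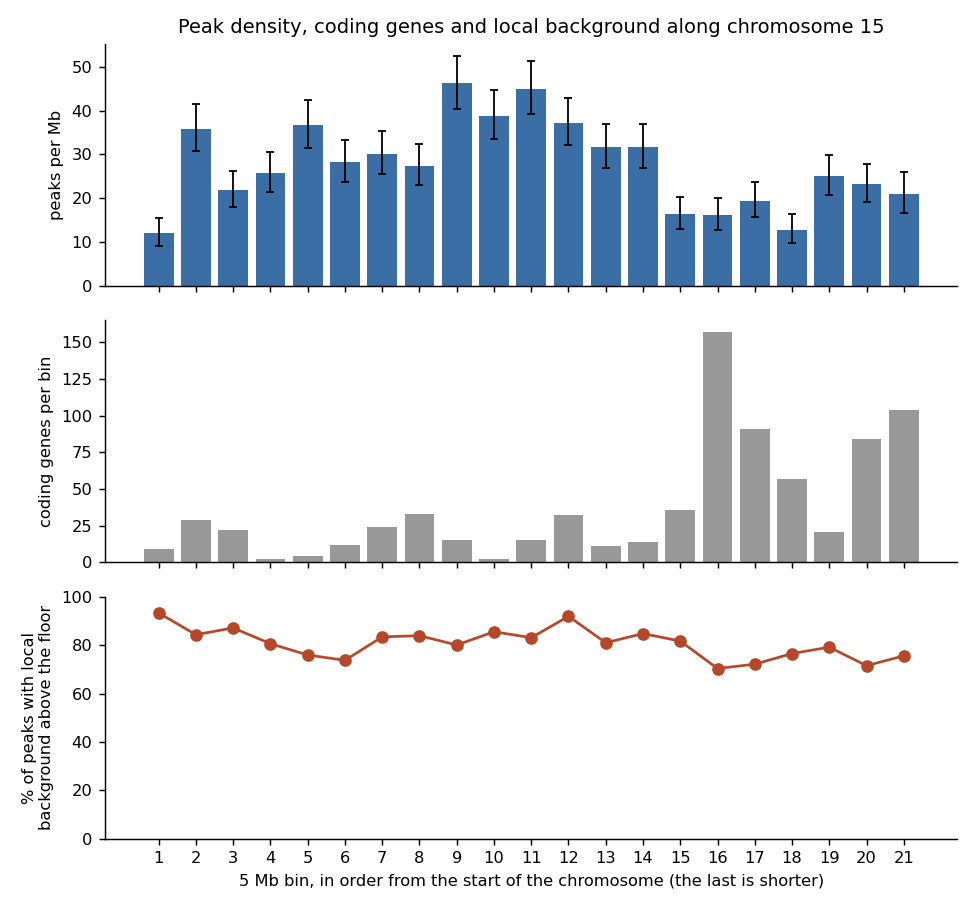
Peaks per Mb with exact Poisson 95% intervals (top), coding genes per bin (middle) and the percentage of peaks whose local background exceeds the floor (bottom), for the 21 bins of 5 Mb of chromosome 15 in order. Density is highest in bins 9 to 11 and low in bins 15 to 18, and the background share lies between 70.4 and 93.3%.

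Peak density ran opposite to gene density. Over the 19 full bins, peaks per Mb and the number of coding genes had Pearson's r of −0.59 and Spearman's rho of −0.63. Over the 445 bins of the other autosomes these were −0.30 and −0.31. Density also moved with background: against the percentage of peaks above the floor, r was 0.46 and rho 0.45 on chromosome 15, and 0.22 and 0.088 elsewhere. The part of background in the differences between bins was not tested. The bins share 1 library, and neither mappability nor base composition was taken into account. In a split added after the data were seen, the 8 bins with under 20 coding genes had 35.5 peaks per Mb (counting SE 0.942), against 22.2 (SE 0.187) in such bins elsewhere, a ratio of 1.60. With 20 to 49 genes, 7 bins had 27.7 per Mb against 20.2, a ratio of 1.37. In the 4 bins with 50 genes or more, the density was 17.9 per Mb (SE 0.946) against 17.7 (SE 0.165), a ratio of 1.01. Background stood above the floor in 80.8%, 85.0% and 72.3% of the chromosome's peaks in these 3 classes. In the same classes elsewhere the shares were 19.10%, 17.28% and 19.55%. On chromosome 15 the share was thus lowest in the gene-rich bins, but it stayed far above the share elsewhere. Whether background accounts for the differences between the ratios of the 3 classes was not tested. For peaks with a depth-scaled pileup (divided by local background over the floor) of 30 or more, the ratios to the other autosomes were 1.54, 1.26 and 0.934. Each gene-rich bin is a single stretch and there were only 4, ranging from 12.8 to 23.2 per Mb. In them peaks with a deposited pileup of 100 or more numbered 3.70 per Mb against 2.62 elsewhere, while peaks with a depth-scaled pileup of 30 or more numbered 11.1 against 11.8.

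**Figure D3:**
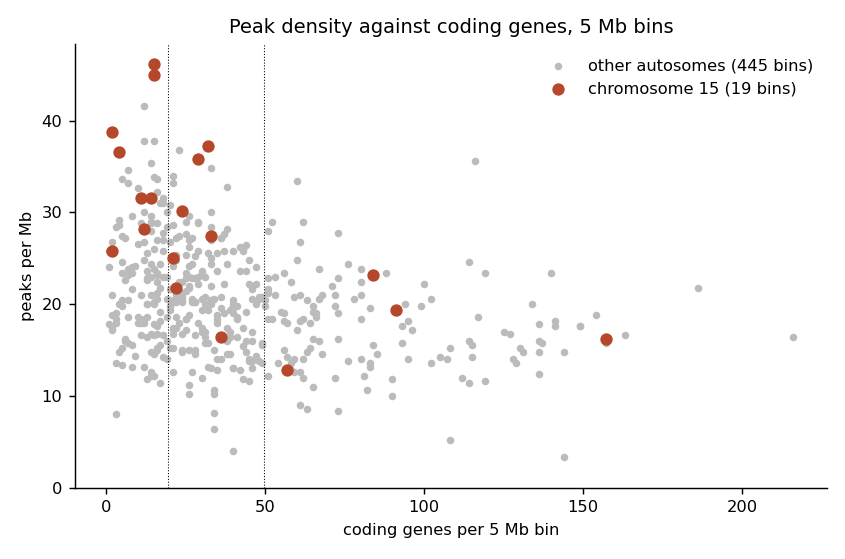
Peaks per Mb (vertical) against coding genes per full 5 Mb bin (horizontal) for 19 bins of chromosome 15 (red) and 445 bins of the other autosomes (grey), with dotted lines between the classes of under 20, 20 to 49 and 50 or more genes. The red points lie high on the left and within the grey ones on the right.

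Summits lay inside a gene in 1412 of 2888 peaks (48.9%, exact interval 47.1 to 50.7%) and inside a coding gene in 40.3%, close to the 48.4% and 39.9% of the other autosomes. They lay within 5 kb of an end of a coding gene in 9.59% (8.54 to 10.7%), against 12.6% elsewhere (12.3 to 12.9%). Outside genes there were 1476 summits, a median of 27.0 kb from the nearest gene end of any kind, and 265 of them were more than 100 kb away. When the peaks were ranked by pileup into 10 groups of 288 or 289, the share inside a gene ran from 41.5 to 55.0% with no steady order. Median length fell from 668 bp in the strongest group to 332 bp in the weakest.

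Of the 10 peaks with the highest pileup, 3 had their summit inside a coding gene. Of the 20 highest, 11 lay inside a gene of any kind, 8 of them inside a coding gene, and 1 of the 20 lay within 5 kb of a coding gene's end. The highest by pileup and by fold was at chr15:5746285-5747243, with 1362 fragments (exact Poisson 95% interval 1291 to 1436) and 272-fold enrichment over a background at the floor. It lay 503 kb from the nearest coding gene, *Ptger4*, a receptor for prostaglandin E2, and 32.5 kb from the pseudogene *Gm18715*. This pileup ranked 17 in the whole table, and 3 peaks of other autosomes had a higher fold enrichment. The second, at chr15:26518809-26519554, had 685 fragments (635 to 738) and lay 21.2 kb outside *Fbxl7*, an F-box gene. The third, at chr15:27381440-27382130, had 675 (625 to 728) and lay 84.9 kb from *Ank*, a membrane transporter that controls mineralisation. The fourth, at chr15:50030969-50032295, had 647 (598 to 699) and lay 623 kb from *Trps1*, a zinc-finger repressor of cartilage and hair development. The intervals of the second to the ninth peaks overlapped, so their order is not resolved.

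The fifth peak, at chr15:40505808-40506720, had 622 fragments, 149 kb from *Zfpm2* and 5165 bp from the noncoding *Gm16294*. The sixth, at chr15:34816850-34817589, had 619, 20.1 kb from *Kcns2*, which encodes a modifier subunit of potassium channels. The eighth, at chr15:43414603-43415308, had 594, 62.3 kb from *Emc2*, a subunit of the complex that inserts proteins into the endoplasmic reticulum membrane. The peaks ranked 7, 9 and 10 lay inside *Cdh18*, *Tnrc6b* and *Tmem65*. By fold enrichment the first 5 were those ranked 1, 3, 4, 2 and 6 by pileup, from 272 down to 116. Enrichment reached 100-fold at 11 of the 2888 peaks of the chromosome and at 70 of the 46146 on the other autosomes.

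The 25 coding genes next to the highest pileups, with a summit inside the gene or within 5 kb of an end, had pileups from 331 to 607. The summit was inside the gene for 24 of them, and within 5 kb of an end for 4. They were long genes, with a median span of 213 kb against 18.3 kb for all coding genes of the chromosome. Gene length was not taken into account in ranking them. The genes and the 5 kb around them held 296 of the chromosome's peaks.

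Among genes of adhesion, the matrix and the cell surface, *Cdh18*, a type II cadherin, had a summit of 607 fragments (exact Poisson 95% interval 560 to 657) at chr15:23408037-23408796, 69.0 kb inside the gene, with 111-fold enrichment. The gene and its surroundings held 43 peaks, with a median pileup of 50, and the lowest had 15. *Csmd3*, a very large gene for a membrane protein with CUB and sushi domains, held 72 peaks, or 58.9 per Mb, yet its highest pileup was 331 (296 to 369). *Col14a1*, a fibril-associated collagen, had 459 fragments at 91.8-fold enrichment. *Slc1a3*, a glutamate transporter of glia, had 351.

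Among signalling genes, *Adcy8*, a calcium-stimulated adenylyl cyclase, had 561 fragments (516 to 609) at chr15:64740694-64741593 over a background of 5.61, which gave 85.1-fold enrichment. *Rictor*, the defining subunit of the kinase complex mTORC2, had 557 (512 to 605) at chr15:6751145-6751900, and the lowest of its 3 peaks had 43. *Csf2rb2*, a receptor chain for interleukin 3, held 1 peak, with 492 fragments (449 to 537) at 98.3-fold enrichment. It is closely related to its neighbour *Csf2rb*, and the treatment of reads shared by such copies is not stated in the labels or headers. *Angpt1*, a ligand of the Tie2 receptor of blood vessels, had 445 fragments and 22 peaks, or 83.9 per Mb. *Ncald*, a neuronal calcium sensor, had 397, and the secreted proteins *Nell2* and *Tafa5* had 470 and 405.

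Genes of RNA and transcription control included *Tnrc6b*, which works with Argonaute proteins in silencing by microRNAs. Its summit of 588 fragments (541 to 638) at chr15:80715881-80716550 lay 4910 bp inside the gene, and the lowest of its 5 peaks had 39. *Khdrbs3*, an RNA-binding regulator of splicing, had 545 (500 to 593), and *Zfpm2*, a cofactor of GATA factors in the heart, had 437 and 19 peaks. Near a gene end lay 3 further summits. *Lmbr1l*, a membrane receptor, had 356 fragments (320 to 395) 845 bp inside the gene. *Lratd2* had 350, 3079 bp inside, and the predicted gene *Gm41291* had 333, 3266 bp outside. Each of these 3 genes held or adjoined 1 peak.

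The remaining genes covered other roles. *Tmem65*, which encodes a membrane protein of mitochondria, had 571 fragments (525 to 620) and 5 peaks, or 97.3 per Mb counted with the 5 kb on each side, the highest density among the 25. That density rests on few peaks over a gene of 41.4 kb, and *Gm41291* had 87.1 per Mb from 1 peak, so this ranking is uncertain. *Oxr1*, which protects against oxidative damage, had 567 (521 to 616) at 113-fold enrichment and 20 peaks. *Retreg1*, a receptor for the autophagy of endoplasmic reticulum, had 361 in a peak of 1728 bp. *Fbxl7* had 374 inside the gene, besides the higher peak outside it. *Nipal2*, *Cplane1* of ciliogenesis, *Samd12* and *Spef2* of the sperm flagellum had 336 to 368.

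**Figure D4:**
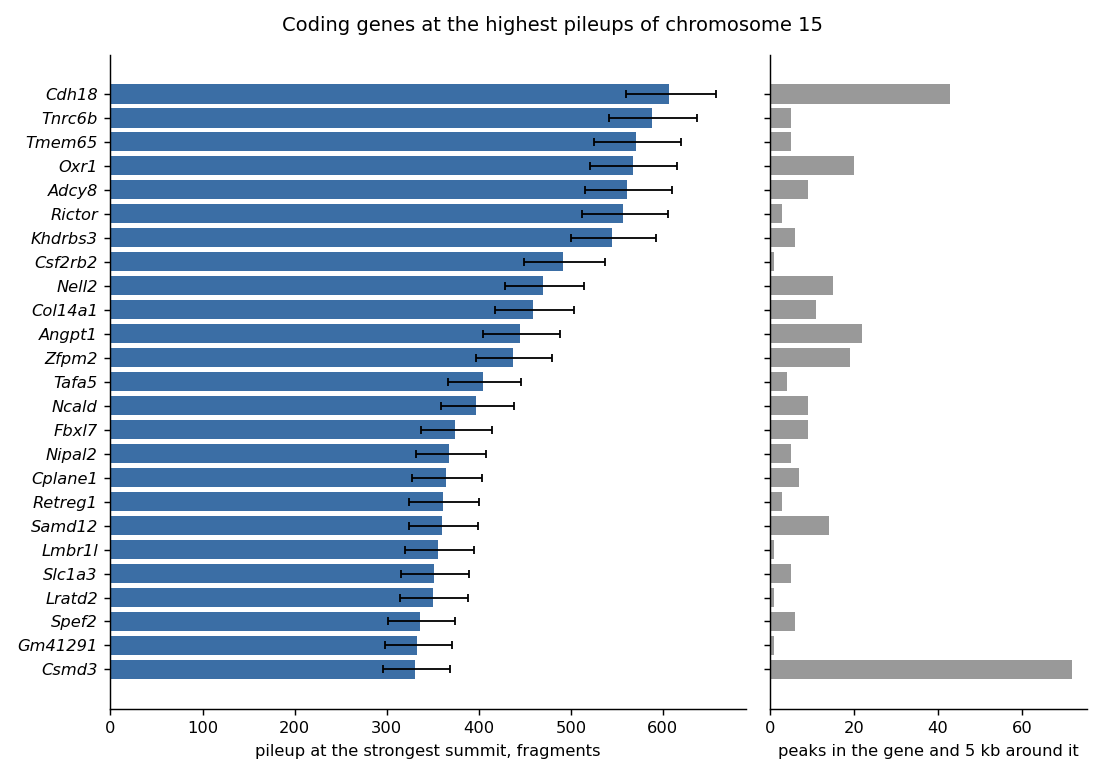
Pileup in fragments at the strongest summit with its exact Poisson 95% interval (left) and the number of peaks in the gene and 5 kb around it (right), for the 25 coding genes at the highest pileups of chromosome 15. Pileups fall from 607 at *Cdh18* to 331 at *Csmd3*, while the number of peaks ranges from 1 to 72 without following the pileup.

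Gene families of the chromosome were then read against its 774 coding genes, of which 32.0% had a summit within 5 kb of an end and 38.9% had one in the gene body. The share within 5 kb was 28.1% over the coding genes of the other autosomes. Of the 100 members of 10 lists, 29 had a summit within 5 kb, a share near that background. Over all coding genes with such a summit, the median of the best pileup was 45.5.

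Among muscle and myoblast genes, 6 of 12 had a summit within 5 kb of an end (50.0%, exact interval 21.1 to 78.9%), with a median best pileup of 55. *Tns2*, a focal adhesion protein, had the highest with 171 fragments (146 to 199), 526 bp inside the gene. *Myh9*, a non-muscle myosin heavy chain, and *Parvb*, an actin-binding partner of integrin-linked kinase, had 79 each. *Mb*, the myoglobin gene, had 31. In their bodies 9 of the 12 genes held 41 summits in all. The median span of the 12 was 60.3 kb, against 18.3 kb for all coding genes of the chromosome, and length was not taken into account.

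The type II cadherins, which join neurons and other cells, had their summits in the gene bodies. *Cdh12* alone had a summit within 5 kb of an end, with 33 fragments, while all 5 genes had summits in their bodies, 90 in all. Of these, *Cdh18* held 43 over 929 kb and *Cdh12* held 34 over 1150 kb, and the median span of the 5 genes was 197 kb. Gene length was not taken into account, so the count is not read as a trait of the family. In microRNA silencing, *Tnrc6b* had its strong peak and *Ago2*, an Argonaute protein, had none near its ends and 1 in the body. Of the 6 cytokine receptors, 0 had a summit within 5 kb of an end (exact upper limit 45.9%) and 3 had one in the body, among them *Csf2rb2*.

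Keratins, the intermediate filaments of epithelia, had a summit within 5 kb of an end in 9 of 26 cases (34.6%, 17.2 to 55.7%). Within 1 kb 0 of the 26 had one, against 9.82% of all coding genes of the chromosome. The Ly6 family (0 of 22), cytokine receptors (0 of 6), Wnt ligands, complement and microRNA silencing genes also had none there. For *Hoxc*, apolipoprotein L, muscle and type II cadherin genes the shares were 22.2%, 16.7%, 25% and 20%. No interval was computed for these small counts, so the keratin count is not read as a trait of the family. In the gene body 4 had one (15.4%, against 38.9%). The median span of the 26 genes was 8.03 kb, against 18.3 kb for all coding genes of the chromosome. Length was not taken into account, so the body share is not read as a trait of the family. *Krt71* of the hair follicle had 142 fragments (120 to 167), followed by *Krt80* with 66, *Krt72* with 48 and *Krt87* with 43. The summits of *Krt80*, *Krt72* and *Krt87* lay 4204, 3162 and 1617 bp outside the gene, and *Krt75* and *Krt90* shared 1 peak. The *Hoxc* cluster of body patterning had a summit at 2 of 9 genes, *Hoxc13* with 50 fragments and *Hoxc12* with 38, both at one end of the cluster. The Ly6 family of surface proteins had one at 4 of 22 (18.2%, 5.19 to 40.3%), led by *Ly6c1* with 120 (99.5 to 143), then *Ly6c2* with 54, *Ly6i* with 42 and *Ly6f* with 39. Apolipoprotein L genes had one at 4 of 12. The highest there, 99 at *Apol11b*, stood over a background of 10.7 fragments, which gave 8.58-fold enrichment, and *Apol10b*, *Apol7a* and *Apol7e* had 23 to 36. Keratin, Ly6 and apolipoprotein L genes include close copies, so the share of each copy is uncertain. Of the Wnt ligands, *Wnt7b* had a summit of 60 fragments 1059 bp outside the gene, and *Wnt1* and *Wnt10b* had none within 5 kb. Of the complement genes, *C9* had a summit within 5 kb of an end, with 60 fragments, and *C6* and *C7* had none there. In the gene bodies *C9* held 3 summits, *C7* 1 and *C6* 0. Of the 50 microRNA genes of the chromosome, 8 had a summit within 5 kb (16.0%, exact interval 7.17 to 29.1%), with pileups of 22 to 56. On the other autosomes 14.5% of microRNA genes had one, a share within that interval. *Mir30b* and *Mir30d* share 1 of these peaks, at chr15:68337860-68338247 with 39 fragments, 542 bp from *Mir30b* and 3156 bp from *Mir30d*.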

How the data were processed

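ChIP-seq was done on 1 antisera library and 1 control library from induced cells, so no comparison between conditions has replicates. Reads were aligned with BWA to mm10, per the submitters' processing notes. Peaks were called with MACS 2.1.0.20151222, per the file headers, at a q-value threshold of 0.01, with at most 1 fragment kept per position, a fragment size of 287 bp and background windows of 1 kb and 10 kb. The headers give 26253175 antisera fragments kept of 32659686 and 23412256 control fragments kept of 40115471. The deposited table holds, per peak, its position, length and summit, its pileup signal in fragments (the whole numbers show no rescaling), the fold enrichment ratio, and the −log10 p-value and −log10 q-value that the authors' peak caller gave. The handling of reads with several alignments is not stated in the labels or headers.

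The local background was computed as the pileup plus 1 over the fold enrichment, minus 1. It was checked on the 2776 chromosome 15 peaks with a −log10 p-value under 300, where the p-value recomputed from it was within 1% of the deposited −log10 value in 100%. Its lowest value, 4.01, is the floor. Density was taken over the length to the last gene or peak, 103.9 Mb here, since chromosome lengths were not used. Genes came from RefSeq (GRCm38.p6). Autosomal genes placed in the first 3 Mb, where no autosomal peak lies, were left out (328, of which 8 on chromosome 15). Intervals are 95%: exact Poisson for pileups and densities of bins, exact binomial for shares, order statistics for medians. For density ratios they are a normal approximation of the log ratio, from the counting error of both peak counts. For median ratios the limits of the chromosome 15 median were divided by the other median, whose own error is left out. Named were the 25 coding genes at the highest pileups, with a summit inside or within 5 kb and 1 peak per gene, the 10 highest pileups and 5 highest folds, at most 4 members per list by best pileup, and the 3 densest and 3 sparsest bins. Genes named beyond this served to place a peak or complete a family. The chromosome, gene lists and rules were chosen with earlier results of these data known. The splits by gene number, the equal ranks per Mb, the depth-scaled densest bin the search with a mismatch, the motif counts per peak and the microRNA share elsewhere were added after the data were seen. Scripts were tested on simulated data, and used Python 3.11.15, pandas 2.3.3, SciPy 1.17.1 and matplotlib 3.10.9.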

Additional observations from a re-analysis of the deposited data

How the results depend on the processing

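No paired analysis was possible because each group has 1 library. Over 69 alternatives, 26 left a value within its interval or within 1.5 times a count, 42 moved it and 1 reversed it. The reversal was the median pileup ratio of chromosome 15 to the other autosomes, 1.10 as deposited (1.07 to 1.17) and 0.959 when depth-scaled (0.927 to 1.00). It is a reversal of the value only, since the depth-scaled interval reached 1.00. At equal density the ratio of deposited pileups was 1.47 at 1 per Mb and 1.58 at 10 per Mb. The median fold ratio, 0.968, became 1.31 and 1.35 at those densities. The density ratio of 1.42 was 1.35 at 5-fold enrichment or more, 1.33 at a depth-scaled pileup of 30 or more, 1.60 in bins with under 20 coding genes and 1.01 in bins with 50 or more. The densest bin, 46.2 per Mb, stayed at 40 to 45 Mb with 39.0 at −log10 q of 10 or more, 18.2 at 10-fold or more and 28.6 depth-scaled. With bins of 2 Mb it was 57.5 at 50 to 52 Mb, and with bins shifted by 2.5 Mb it was 49.4 at 47.5 to 52.5 Mb. Fewer peaks or narrower bins enter these values by construction. The share of summits near a coding gene end was 2.53% within 1 kb and 25.9% within 20 kb, and 8 and 60 of the 100 list members had a summit at those distances, against 9.82% and 67.1% of all coding genes of the chromosome. With 1 mismatch allowed, promoter windows with a summit and a motif match numbered 3 for the Dux core and 2 for the DUX4 core, against 0 and 0. Ranked by fold, 23 of the 25 named genes remained, *Csmd3* and *Spef2* leaving. Ranked by depth-scaled pileup 22 did, *Csmd3*, *Gm41291* and *Spef2* leaving. The floor of the background limits every depth-scaled value.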
